A study of Mus musculus with 14 samples.

Results

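The 9 genes described here, Sod1, Tardbp, Smn1, Vcp, Optn, Tbk1, Ubqln2, Matr3 and Chmp2b, are genes whose human counterparts are mutated in amyotrophic lateral sclerosis or spinal muscular atrophy. They were picked by name from the 23523 gene entries of the deposited gene table, in which each has 1 entry. Both diseases destroy motoneurons, the nerve cells that drive muscle, although these genes are active in most cell types. Their products fall into several systems. Tardbp (TDP-43) and Matr3 encode nuclear RNA-binding proteins, and Smn1 encodes the core of the complex that loads Sm proteins onto spliceosomal RNAs. Vcp, Ubqln2, Optn, Tbk1 and Chmp2b act in protein degradation, autophagy and endosomal sorting, and Sod1 encodes the cytosolic copper-zinc superoxide dismutase.

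The RNA libraries were prepared from polyadenylated mouse RNA, and the knockout removes both genes of miR-218, a microRNA abundant in motoneurons. Motoneurons with the background mutation 218DKO (DKO, double knockout of miR-218) gave 2 libraries and wild-type (WT) motoneurons gave 6, all sorted as GFP-positive cells from Hb9::gfp spinal cords at E12.5 (embryonic stage), so the reporter transgene is shared by both genotypes and is driven by Hb9 sequences. V1, V2a and V3 interneurons of the same stage, wild type, were sorted as tdTomato-positive cells marked through En1:cre (V1), a Cre driver of the V2a class or Sim1:cre (V3) with Rosa26:LSL:tdTomato, and gave 1 library each. Wild-type mouse embryonic stem (mES) cells, differentiated with retinoic acid and a sonic hedgehog agonist, gave 1 library of tdTomato-positive motoneuron progenitors (pMN, Olig2:cre with Rosa26:LSL:tdTomato) and 1 of unsorted neural progenitors (NP, no reporter) at day 4. Of 14 labelled samples, 13 had a column in the tables. The remaining one, floor plate, is not analysed here. Whether replicates are separate animals is not stated in the labels, so each p-value reflects the spread among these libraries alone, possibly a technical one. Within the interneurons and within the mES libraries, that spread also holds differences between cell types, which have 1 library each.

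Values are a signal per gene that behaves as a length-scaled abundance, so levels of different genes are compared on that scale. Approximate depth was 7.81 M and 16.4 M reads in the DKO libraries, 12.3 to 29.7 M in WT motoneurons, 17.0 to 18.3 M in interneurons and 24.1 to 26.8 M in mES cells. The 5 motoneuron markers (Mnx1, Isl1, Isl2, Chat, Slc18a3) summed to 8070 to 8797 in DKO and 6991 to 8791 in WT libraries, against 39.8 in V1, 1561 in V2a, 124 in V3 and 234 and 236 in the mES libraries. Most of the V2a sum was Slc18a3 (1202) and Chat (309), with Mnx1, Isl1 and Isl2 at 7.46, 34.4 and 7.63. En1 in V1, Shox2 in V2a, Sim1 in V3 and Olig2 in pMN were each highest in the library of that label. The neural progenitor markers (Sox2, Nes, Pax6, Sox1) did not single out NP. They summed to 1101 in NP and 3442 in pMN, against 279 to 751 in interneurons. Pluripotency genes (Pou5f1, Nanog, Zfp42) still summed to 1612 and 1937 in the pMN and NP libraries, against at most 18.6 elsewhere. Rn45s, the ribosomal RNA precursor, differed among WT motoneurons. It was at 10197, 27943 and 14356 in WT replicates 2, 3 and 4, whereas WT replicates 1, 5 and 6 had 644 to 4275. The other groups lay within that lower range. Rn45s was at 1647 and 1112.5 in DKO, 1841 to 2160 in interneurons, 1701 in pMN and 2220 in NP. In bulk samples, fewer cells of a type and less RNA per cell cannot be told apart.

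Because the DKO cells lack miR-218, the annotated 3′ UTRs of the 9 genes were searched for the letters that pair with its seed, on the transcript strand. The mature miRNA, with its seed (bases 2 to 8) in capitals, and the sites found in the 2 members with a match of 7 or 8 letters are shown because they bear on the DKO comparison.
mmu-miR-218-5p: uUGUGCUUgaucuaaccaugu
Ubqln2 site: cacagtacagtAAGCACAAttggaattgta
Smn1 site: agtcgtgactgAGCACAAatgtgcaattgt
Capitals in the sites mark the matched letters. The miRNA sequence is from RefSeq (GRCm38.p6), where the identical mature form is encoded by Mir218-1 (chr5:48223966-48223986, plus strand) and Mir218-2 (chr11:35616840-35616860, plus strand).

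The Ubqln2 match is AAGCACAA, an 8mer (bases 2 to 8 of the miRNA and an A opposite its first base), at chr X, 153500996 to 153501003, plus strand of GRCm38 (mm10), with AGCACA starting at base 627 of a 3′ UTR of 1200 bases. Of 19237 gene entries with an annotated 3′ UTR, 3.71% had an 8mer as their strongest match. The Smn1 match is AGCACAA, a 7mer-A1, at chromosome 13, 100137609 to 100137615, plus strand, in a 3′ UTR of 313 bases, a class that held 4.65% of entries. AGCACAA and the 6mer AGCACA lie within the 8mer, so each gene was counted once, in its strongest class. Tardbp held only the 6mer, at chromosome 4, 148614312 to 148614317 and 148612854 to 148612859, minus strand, in a 3′ UTR of 5879 bases. The UTRs of Sod1, Vcp, Optn, Tbk1, Matr3 and Chmp2b did not contain these letters. On the same build, Ubqln2 is a single-exon gene (chromosome X, 153498227 to 153501570, plus strand), Smn1 lies at chromosome 13, 100124852 to 100137690 (plus strand), Sod1 at chromosome 16, 90220754 to 90226329 (plus strand) and Chmp2b at chromosome 16, 65539128 to 65562726 (minus strand).

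In WT motoneurons the 9 genes spanned a wide range of signal. Vcp, which encodes the AAA ATPase (also called p97) that pulls ubiquitinated proteins out of complexes and membranes, was highest at 3729 ± 329 (SD, n = 6 here and for the other WT values). Matr3, a nuclear matrix and RNA-binding protein gene, followed at 3467 ± 670, and Sod1 at 3088 ± 368, so these neighbours did not differ beyond their spread. Ubqln2, a shuttle that carries ubiquitinated proteins to the proteasome, was at 1314 ± 131 and Tardbp at 726 ± 95.4. Chmp2b, a subunit of the endosomal sorting complex ESCRT-III, was at 392 ± 66.4 and Smn1 at 283 ± 72.6. Tbk1, a kinase that phosphorylates autophagy receptors, was at 167 ± 33.1, and Optn, which encodes the autophagy receptor optineurin, was lowest at 119 ± 17.2. Across all 13 libraries Sod1 and Vcp never left the top of the distribution (98.01 to 99.38 and 98.73 to 99.14 percentile of all entries), whereas Chmp2b ranged from the 60.6 to the 90.96 percentile.

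**Figure D1:**
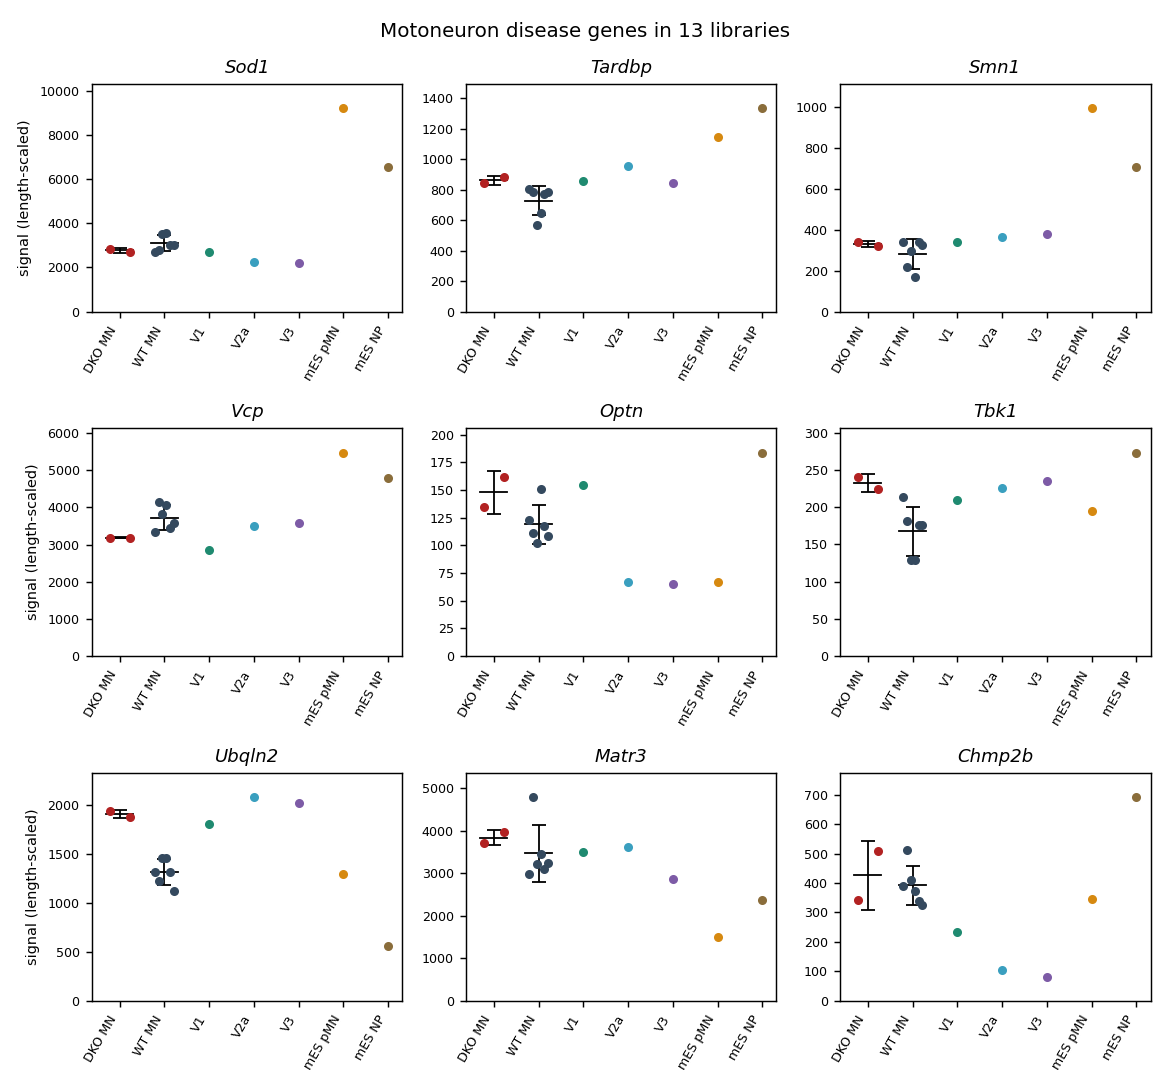
Signal (length-scaled, linear axes from 0) of the 9 genes in every library, where each point is 1 library and black bars give the mean ± SD of the 2 DKO and 6 WT motoneuron (MN) libraries. Ubqln2 lies at 1875 and 1935 in DKO motoneurons, above all 6 WT libraries (1123 to 1458), and Chmp2b is higher in every WT motoneuron library (327 to 511) than in the 3 interneuron libraries (81.4 to 232).

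The scatter among WT libraries was smallest for Vcp (coefficient of variation 8.81%) and largest for Smn1 (25.7%). Sampling of reads limits the low members most, with about 124 reads behind Optn and 159 behind Smn1 in the shallower DKO library. That corresponds to a sampling error of about 9.0% for Optn, the lowest precision among the DKO values, from an approximate depth and for counting error only. Vcp and Smn1 separated along the Rn45s split described above. Vcp was at 4133, 3812 and 4068 in WT replicates 2, 3 and 4, all above the 3342 to 3569 of WT replicates 1, 5 and 6. Smn1 was at 217, 298 and 169 in WT replicates 2, 3 and 4, all below the 326 to 343 of WT replicates 1, 5 and 6. The other 7 members overlapped across the split, among them Tbk1, at 129 in both WT replicates 3 and 4 and at 175 to 214 in the others. The share of all genes that separate along this split was not determined, so the separation is not read as particular to Vcp and Smn1. The part of Rn45s in these differences was not tested.

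Reads can be shared with related sequences, and this differs between members. Of all 50-base stretches of the longest matched transcript, 64.6% of those of Vcp also occur in an annotated transcript of another gene, chiefly the processed pseudogene Vcp-rs. For Matr3 the share was 28.7% (mainly Gm28285), for Tardbp 24.4% (mainly the neighbouring gene Masp2), for Sod1 23.1% (the processed pseudogene Gm8566) and for Optn 1.06% (an antisense transcript). For Smn1, Tbk1, Ubqln2 and Chmp2b it was 0. How the authors assigned shared reads is not given in the sources used here, so levels of Vcp, Matr3, Tardbp and Sod1 are uncertain to that extent.

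Setting DKO beside WT motoneurons asks what changes when miR-218 is lost. Ubqln2 rose and the other 8 members did not pass the test. Ubqln2 had a signal of 1935 and 1875 in the DKO libraries, against 1123 (lowest), 1312 (median) and 1458 (highest) in the WT libraries. Both DKO values lay above every WT value. The fold change was 1.46 (log2 0.54, SE 0.12, limma with Benjamini-Hochberg adjustment over 16260 genes, adjusted p = 0.0203). With this rule 7.99% of all genes tested were called, 3.22% higher and 4.77% lower, so 1 member of 9 is near the background. Scaled to equal totals, 656 genes were higher and 598 lower, against 523 and 776 as deposited. The log2 difference was 0.52 without DKO replicate 1 and 0.56 without DKO replicate 2. The call was lost in both fits, which leave 1 DKO library and call few genes in general. It was also lost with a variance prior without trend (adjusted p = 0.0566). With all 13 libraries in the fit it was lost too (0.233), and 107 genes were called higher and 129 lower. It was kept with WT replicates 2, 3 and 4 left out (0.00994) or WT replicates 1, 5 and 6 left out (0.0362).

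Markers of other cells moved between the same libraries. The V1 markers (En1, Foxd3, Foxp2) summed to 959 and 961 in DKO libraries, against 326 to 683 in WT libraries, although En1 itself was at 2.05 and 1.96 in DKO libraries, against 2.73 to 40.9 in WT libraries. The 5 cell cycle markers summed to 6.18 and 9.49 in DKO libraries, with Aurkb at 0 in both, against 21.5 to 110 in WT libraries. Their part in the Ubqln2 difference was not tested.

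Ubqln2 was also the only one of the 9 genes with an 8mer for miR-218. Of 624 tested genes with an 8mer, 120 (19.2%) were called higher in DKO motoneurons and 6 lower, with a median log2 difference of 0.31. The 7mer-m8 class had 8.49% of 1532 genes called higher (median 0.12) and the 7mer-A1 class of Smn1 5.57% of 772 (0.079). The 6mer class of Tardbp had 1.95% of 2409 (-0.028) and genes with no match 1.43% of 9376 (-0.061). The 1547 genes without an annotated 3′ UTR had a median of 0.28, near that of the 8mer class, with 3.17% called higher. The classes were not matched for UTR length, and the part of the site in the Ubqln2 difference was not tested. Smn1 itself was at 341 and 319 in DKO libraries, inside the WT range of 169 to 343 (log2 0.27, SE 0.25, adjusted p = 0.516). Its log2 difference was -0.028 without WT replicates 2, 3 and 4.

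The other ubiquilin genes did not share the Ubqln2 pattern. Ubqln1 was at 1229 and 1153 in DKO libraries, against 1182 to 1602 in WT libraries, and Ubqln4 at 623 and 618 against 619 to 717. Neither passed the test. Among 27 ubiquilin and proteasome subunit genes, Ubqln2 was the only gene called, where 7.99% of all genes tested were called. The median log2 difference of the list was -0.16, against 0.00 over all genes tested.

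**Figure D2:**
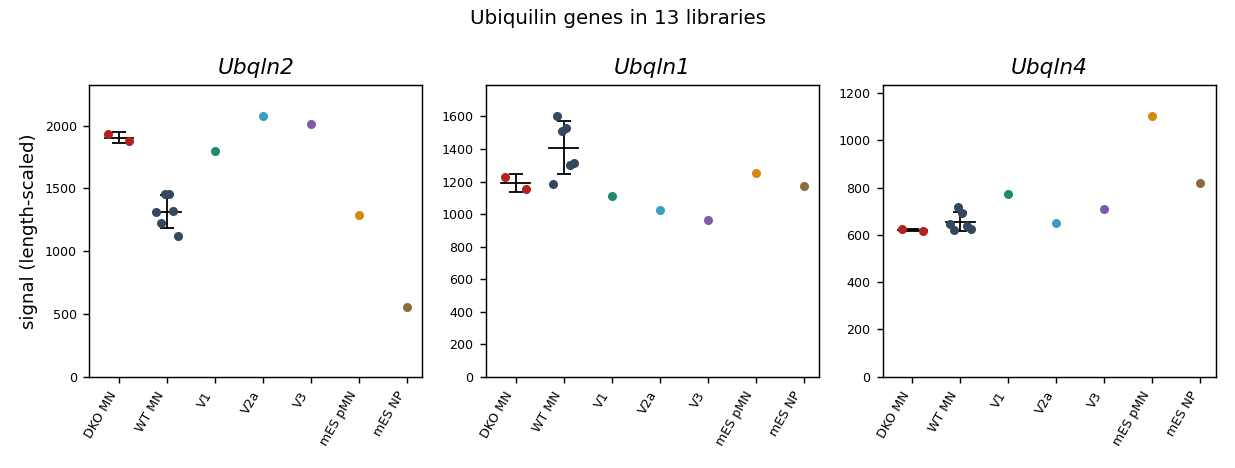
Signal (length-scaled, linear axes from 0) of the ubiquilin genes Ubqln2, Ubqln1 and Ubqln4 in each library, with the mean ± SD for the 2 DKO and 6 WT motoneuron libraries. Ubqln2 is higher in DKO (1875 and 1935) than in WT motoneurons (1123 to 1458), WT motoneurons are also below the interneurons (1801 to 2076), and Ubqln1 is higher in WT motoneurons (1182 to 1602) than in interneurons (963 to 1112).

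Tbk1, Tardbp and Vcp also had DKO values outside the WT range without passing the test. Tbk1 was at 240 and 224 in DKO libraries, against 129, 176 and 214 (lowest, median and highest) in WT libraries. The log2 difference was 0.49 (SE 0.19, 95% interval 0.06 to 0.92, adjusted p = 0.139). Tbk1 was called with only WT replicates 2, 3 and 4 as controls (log2 0.68, adjusted p = 0.0486), the libraries with high Rn45s. With those controls 1282 genes were called higher and 1170 lower, against 523 and 776 with all WT libraries. Tardbp was at 841 and 882 in DKO libraries, against 569, 776 and 802 in WT libraries (log2 0.26, SE 0.14, adjusted p = 0.269). Vcp was at 3189 and 3171 in DKO libraries, just below the WT range of 3342 to 4133 (log2 -0.22, SE 0.11, adjusted p = 0.240). In all, 4 of 9 members had groups that did not overlap, against 30.7% of all genes tested.

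For the remaining members the groups overlapped. Optn was at 134 and 162 in DKO libraries, against 102 to 151 in WT libraries (log2 0.32, SE 0.17, adjusted p = 0.252). Sod1 was at 2841 and 2693 against 2676 to 3573 (log2 -0.15, SE 0.13, adjusted p = 0.484). Matr3 was at 3714 and 3967 against 2994 to 4797 (log2 0.17, SE 0.17, adjusted p = 0.549), where WT replicate 2 alone exceeded both DKO values. Without WT replicates 2, 3 and 4, Matr3 was called higher (log2 0.30, adjusted p = 0.0385). That fit called 985 genes higher and 1330 lower, against 523 and 776 with all WT libraries. Chmp2b was at 342 and 510, so the DKO libraries themselves stood apart, against 327 to 511 in WT libraries (log2 0.11, SE 0.19, adjusted p = 0.755). Over the 9 members 7 estimates were positive and 2 negative, with a median of 0.26. The intervals show how much these data leave undetermined, for example -0.44 to 0.14 for Sod1 and -0.28 to 0.82 for Smn1.

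**Figure D3:**
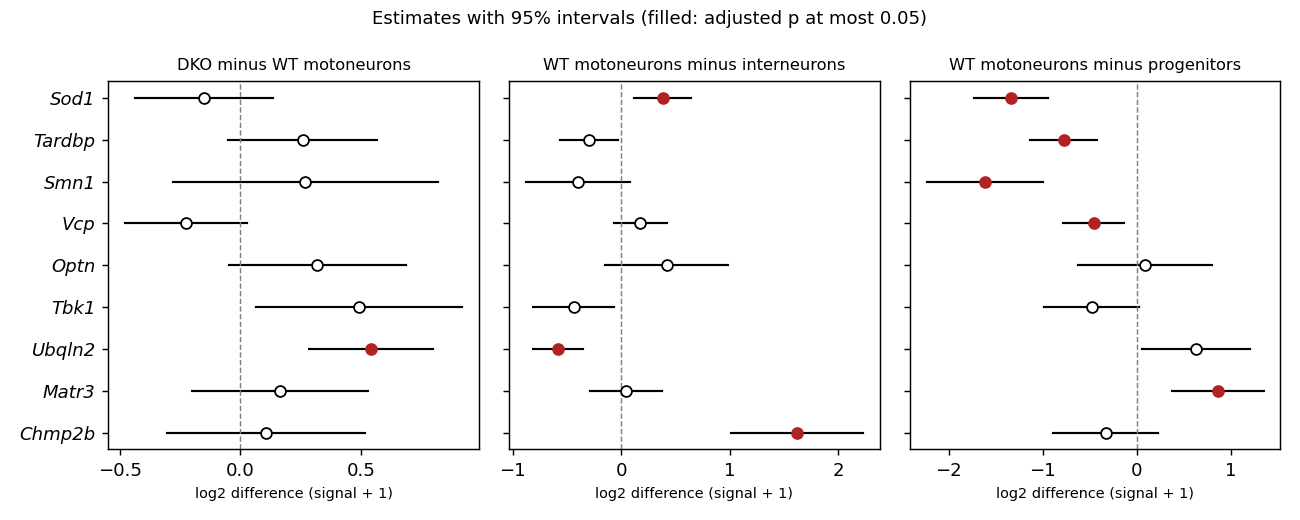
Log2 differences (points) with 95% intervals (lines) of the 9 genes on the log2(signal + 1) scale for DKO minus WT motoneurons, WT motoneurons minus interneurons and WT motoneurons minus mES cell-derived progenitors, each on its own horizontal scale. Filled points passed an adjusted p of 0.05, which were Ubqln2 (left), Sod1, Ubqln2 and Chmp2b (middle) and Sod1, Tardbp, Smn1, Vcp and Matr3 (right).

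Genes around the members moved in DKO motoneurons in a few places. Of 40 other motoneuron disease genes in the table, 39 were tested, none was called higher and 6 were called lower, with 33 not passing and a median log2 difference of -0.07. Over all genes tested, 3.22% were called higher and 4.77% lower. Nefh, the heavy neurofilament subunit, fell to 90.0 ± 11.7 in DKO libraries (n = 2), against 272 ± 43.1 in WT libraries (n = 6), a log2 difference of -1.57 (limma adjusted p = 8.8e-04). Dctn1, the large subunit of the dynactin motor complex, fell to 1417 ± 6.47 in DKO libraries, against 2108 ± 242 in WT libraries. Prph, the intermediate filament peripherin, showed the largest fall of the list, at 454 ± 7.86 against 6226 ± 1182. With 20 of the 39 estimates negative, the list as a whole was centred near the median of all genes.

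In DKO motoneurons, 4.77% of all genes tested were called lower and 3.22% higher. In the pathway of Sod1, 4 of 15 tested genes for enzymes that handle superoxide and peroxide were called lower in DKO motoneurons and none higher, with a median of -0.19. They were the peroxiredoxins Prdx6 (372 ± 13.1 in DKO, 680 ± 51.7 in WT) and Prdx1 (629 ± 73.4 and 1257 ± 229 in DKO and WT), glutathione reductase Gsr (74.1 ± 1.06 and 134 ± 20.6) and catalase Cat (404 ± 4.72 and 727 ± 174). Sod2, the mitochondrial dismutase, was at 451 ± 1.94 in DKO and 442 ± 33.1 in WT libraries. Of 9 SMN complex genes, Gemin5, which recognises the RNAs the complex loads, was called lower at 94.9 ± 4.28 against 158 ± 19.5, and 8 did not pass. No gene was called by limma among 15 TBK1 partners and autophagy receptors (6 had an unadjusted p under 0.05), 13 ESCRT-III and VPS4 genes (0), 21 VCP and its cofactors (4) and 22 nuclear RNA-binding genes (2). Among all 16260 genes tested, an unadjusted limma p of 0.0454 held only rank 4116, so such values were common in general.

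The comparison of WT motoneurons with V1, V2a and V3 interneurons, taken as 3 members of one class, asks whether the disease genes differ between motoneurons and other ventral spinal neurons of the same age. Chmp2b and Sod1 were called higher and Ubqln2 lower in motoneurons, and 6 members did not pass. Of 16486 genes tested, 32.9% were called, 17.7% higher and 15.2% lower, so 3 of 9 members is the background share. Scaled to equal totals, 2014 genes were higher and 3908 lower, against 2921 and 2498 as deposited. Groups did not overlap for 3 of 9 members, against 33.1% of all genes. Chmp2b showed the largest difference. It was at 327, 382 and 511 (lowest, median and highest) in WT motoneurons, against 232 in V1, 105 in V2a and 81.4 in V3 interneurons. Every interneuron library lay below every motoneuron library. The difference was 3.07-fold (log2 1.62, SE 0.28, limma adjusted p = 0.00168). It was called with each library left out in turn, with log2 values from 1.31 to 2.06.

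V1 stood closer to motoneurons than V2a and V3 did for Chmp2b, and cell cycle and mesenchyme markers moved in the same order. The cell cycle markers (Mki67, Top2a, Ccnb1, Cdk1, Aurkb) summed to 21.5 to 110 in WT motoneurons, against 29.2 in V1, 387 in V2a and 976 in V3. Mesenchyme markers (Col1a1, Col1a2, Dcn) summed to 5.47 to 192 in WT motoneurons, against 12.2, 117 and 447 in V1, V2a and V3. The blood markers were at 4.42 to 672 in WT motoneurons, against 117, 4703 and 212. Their part in the difference was not tested. Its closest relative in the complex, Chmp2a, was at 942 ± 41.9 in motoneurons and 926 ± 13.2 in interneurons (n = 6 and 3).

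Ubqln2 was at 1123, 1312 and 1458 in WT motoneurons, against 1801 in V1, 2076 in V2a and 2013 in V3, with no overlap. The log2 difference was -0.58 (SE 0.10, limma adjusted p = 0.0021), and it was called with each library left out in turn. This comparison and that of DKO with WT motoneurons share the 6 WT libraries, so their differences are not independent. Side by side, Ubqln2 was at 1875 and 1935 in DKO motoneurons and at 1801 to 2076 in interneurons. Ubqln1, its paralog, was called higher in motoneurons (1407 ± 164 against 1032 ± 74.8, log2 0.44, adjusted p = 0.0129).

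Sod1 was at 2676, 2999 and 3573 in WT motoneurons, against 2679 in V1, 2224 in V2a and 2198 in V3. The V1 value lay within the motoneuron range. The log2 difference of 0.38 (SE 0.12, limma adjusted p = 0.0316) was lost when WT replicate 3, 4, 5 or 6, V2a or V3 was left out (adjusted p from 0.0506 to 0.114). It was also lost without WT replicates 2, 3 and 4 (0.0896), with a variance prior without trend (0.0584), with equal totals (0.146) and with quantile normalization (0.140). Optn was split between interneuron types, at 154 in V1, above the 102 to 151 of motoneurons, and at 67.1 in V2a and 65.3 in V3, below it. The class difference did not pass (log2 0.42, adjusted p = 0.223), and without V1 it was called higher in motoneurons (log2 0.82, adjusted p = 0.00609).

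The other members did not pass. Tardbp was at 569 to 802 in WT motoneurons, below the 858, 956 and 843 of V1, V2a and V3 (log2 -0.30, SE 0.12, adjusted p = 0.0850). Tbk1 was at 129 to 214 in motoneurons and at 209, 226 and 235 in V1, V2a and V3 (log2 -0.44, SE 0.17, adjusted p = 0.0691). It was called lower in motoneurons without WT replicate 1 (adjusted p = 0.0312) and with equal totals (0.0354), where Tardbp was called too (0.0302). Smn1 was at 169 to 343 in motoneurons and at 340, 366 and 379 in V1, V2a and V3 (log2 -0.40, SE 0.22, adjusted p = 0.175). Vcp was at 3342 to 4133 in motoneurons, against 2854, 3497 and 3576 in V1, V2a and V3 (log2 0.17, adjusted p = 0.237). Matr3 was at 2994 to 4797 and at 3503, 3614 and 2875 in the same order (log2 0.05, 95% interval -0.29 to 0.38). Scaling to equal totals moved the median of all genes to a log2 difference of -0.22, against -0.04 as deposited.

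Lists around the members differed in direction between motoneurons and interneurons. Of all genes tested, 17.7% were called higher in motoneurons and 15.2% lower. Of 39 other disease genes tested, 10 were higher, 1 was lower and 28 did not pass. They included Slc5a7, the choline transporter (752 ± 123 in motoneurons, 5.08 ± 1.68 in interneurons), and Nefh (272 ± 43.1 in motoneurons, 47.8 ± 12.9 in interneurons). Among 15 superoxide and peroxide enzyme genes 9 were higher, Sod1 among them, and none lower, with a median log2 difference of 0.46. Prdx1 was at 1257 ± 229 in motoneurons and 348 ± 149 in interneurons. Among 22 nuclear RNA-binding genes none was higher and 7 were lower, with a median of -0.27. Elavl1, an RNA-stability factor, was at 320 ± 41.9 in motoneurons and 528 ± 23.7 in interneurons, and Sfpq, a paraspeckle protein gene, at 3267 ± 382 and 4717 ± 194. Of 13 ESCRT-III and VPS4 genes, 5 were higher, with Chmp2b, Chmp4b and Chmp3 among them, and 2 lower, Ist1 and Chmp1b. Of 27 ubiquilin and proteasome genes 7 were higher and 1, Ubqln2, was lower, and of 21 genes for VCP and its cofactors 4 were higher and none lower. The SMN complex had 1 higher (Gemin7) and 1 lower (Ddx20) of 9, and the TBK1 partners and autophagy receptors 3 higher and 2 lower of 15.

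**Figure D4:**
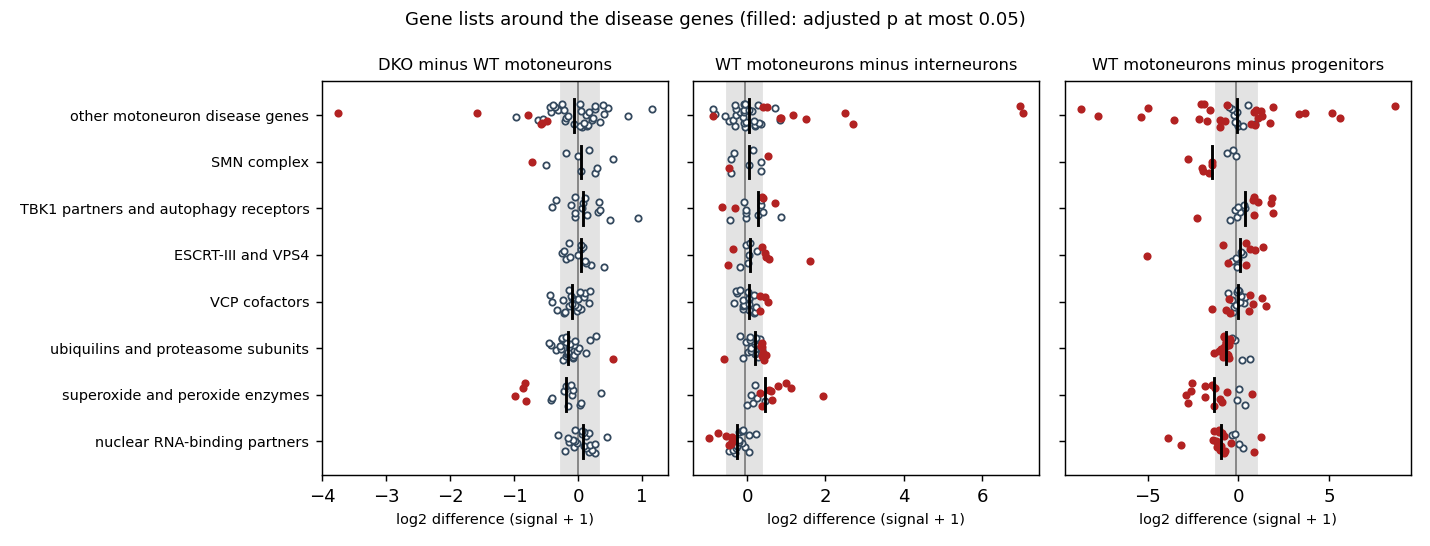
Log2 differences of single genes (points) in the 8 lists around the members for the 3 comparisons, each on its own horizontal scale, with the list's median as a short black line and the median and interquartile range of all tested genes as a grey line and band. Filled points passed an adjusted p of 0.05, and lists include the members that belong to them. In the middle panel the superoxide and peroxide enzymes have a median of 0.46 and the nuclear RNA-binding genes one of -0.27.

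WT motoneurons were also set against the pMN and NP libraries, taken as 2 members of one class, to ask how postmitotic motoneurons differ from dividing progenitors. Sod1, Tardbp, Smn1 and Vcp were called lower and Matr3 higher in motoneurons, and 4 members did not pass. Of 17134 genes tested, 66.2% were called, 30.0% higher and 36.2% lower, so 5 of 9 members is below the background share. Scaled to equal totals, 6009 genes were higher and 5049 lower, against 5137 and 6204 as deposited. Groups did not overlap for these same 5 members, against 66.1% of all genes. Stage, source (embryo or culture) and cell division cannot be told apart here, and the cell cycle markers summed to 21.5 to 110 in motoneurons, against 8572 in pMN and 8030 in NP. The median log2 difference over all genes was -0.12 and became 0.16 with equal totals.

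Smn1 differed most. It was at 169, 312 and 343 (lowest, median and highest) in WT motoneurons, against 995 in pMN and 708 in NP. The difference was 3.06-fold (log2 -1.61, SE 0.28, limma adjusted p = 4.5e-04). The signal is the sum of 2 RefSeq models, which the annotation used here pairs with a single transcript. The model NM_011420 made up 85.4% of the Smn1 signal in pMN and 59.8% in NP, against 27.7% to 59.2% in WT motoneurons and 43.1% and 43.4% in DKO motoneurons. In WT replicates 2 and 4, where Smn1 was lowest, this model was at 60.3 and 57.9, and it was at 148 to 203 in WT replicates 1, 3, 5 and 6. How reads common to both models were divided is not given in the sources used here. With about 148 to 632 reads behind Smn1 in the WT libraries, these shares are uncertain. For Tardbp the model NM_145556 held at least 96.7% of the signal in every library.

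**Figure D5:**
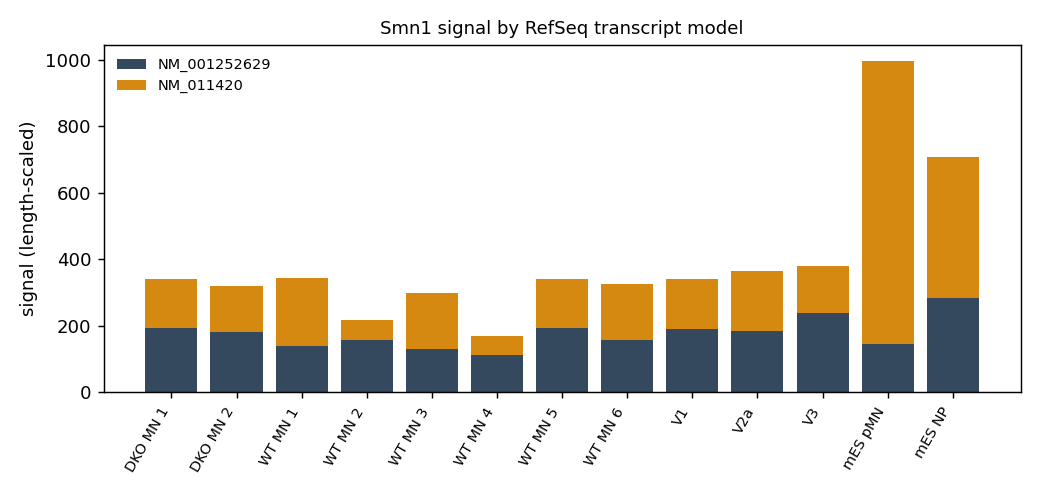
Smn1 signal (length-scaled, linear axis from 0) in each of the 13 libraries, stacked by RefSeq transcript model. The pMN library reaches 995, of which 850 is NM_011420, and WT replicates 2 and 4 are the lowest bars, at 217 and 169.

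Sod1 was at 2676, 2999 and 3573 in WT motoneurons, against 9211 in pMN and 6563 in NP, a 2.53-fold difference (log2 -1.34, SE 0.18, limma adjusted p = 6.5e-05). Tardbp was at 569, 776 and 802 in motoneurons, against 1146 in pMN and 1334 in NP (log2 -0.78, SE 0.16, adjusted p = 0.00143), a call lost with equal totals (0.0576). Vcp was at 3342, 3691 and 4133 in motoneurons, against 5476 in pMN and 4782 in NP (log2 -0.46, SE 0.14, adjusted p = 0.0156), and lost its call with equal totals (0.174), with quantile normalization (0.0750), without pMN (0.0643) and without WT replicates 1, 5 and 6 (0.113). Matr3 went the other way. It was at 2994, 3232 and 4797 in motoneurons, against 1500 in pMN and 2365 in NP (log2 0.86, SE 0.22, adjusted p = 0.00518), and was not called without pMN (log2 0.53, adjusted p = 0.106).

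The progenitor libraries differed from each other for the members that did not pass. Ubqln2 was at 1289 in pMN, inside the 1123 to 1458 of motoneurons, and at 556 in NP (log2 of motoneurons over the class 0.63, SE 0.26, adjusted p = 0.0522). It was called without pMN (log2 1.23, adjusted p = 4.8e-04), with equal totals (log2 0.92, 0.00258), quantile normalization (0.0150), all 13 libraries (0.0260), a mean signal of at least 10 (0.0456) and a robust prior (0.0480). Optn was at 66.6 in pMN, below the 102 to 151 of motoneurons, and at 184 in NP, above it. Chmp2b was at 345 in pMN, within the 327 to 511 of motoneurons, and at 693 in NP. Without NP, Optn was called higher in motoneurons (log2 0.82, adjusted p = 0.0133), and without pMN it was called lower (log2 -0.64, adjusted p = 0.0341), as was Chmp2b (log2 -0.84, adjusted p = 0.0179). In these fits the lone progenitor library is assumed to vary like the motoneurons. Tbk1 was at 129 to 214 in motoneurons, 194 in pMN and 273 in NP (adjusted p = 0.0852).

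Among all genes tested, 30.0% were called higher in motoneurons than in progenitors and 36.2% lower. Of 9 SMN complex genes 6 were lower in motoneurons than in progenitors, Smn1 among them, and none was higher. The other 3 missed the threshold, and the list's median log2 difference was -1.44. Gemin6 was at 47.0 ± 9.61 in motoneurons and 330 ± 15.6 in progenitors (n = 6 and 2), and Gemin2 at 105 ± 9.99 and 408 ± 19.9. Of 16 superoxide and peroxide enzyme genes 12 were lower, Sod1 among them, 1 was higher and 3 did not pass (median -1.33), with Prdx1 at 1257 ± 229 and 9298 ± 71.4. Of 27 ubiquilin and proteasome genes 23 were lower and none higher (median -0.68). Of 22 nuclear RNA-binding genes 16 were lower and 2 higher, Matr3 among the higher ones. In contrast, 7 of 15 TBK1 partners and autophagy receptors were higher and 1 was lower. Gabarapl1, an autophagosome membrane protein gene, was at 1905 ± 261 in motoneurons and 530 ± 41.2 in progenitors. The other disease genes were split, with 14 higher and 14 lower of 39, as were the ESCRT-III and VPS4 genes (5 higher and 3 lower of 14) and VCP with its cofactors (5 higher and 4 lower of 21).

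Each member was set beside the genes whose log2(signal + 1) followed it most closely over the 13 libraries, in a search over 13719 genes averaging 10 or more in signal. These correlations are descriptions across libraries that share cell type and, for 8 of them, the motoneuron sort, and the progenitor libraries weigh heavily in them. Sod1 was followed by Pabpc4 (Pearson r = 0.99), Vcp by the proteasome assembly gene Psmd5 and the translation factor gene Eif4a1 (0.98 for both), and Tardbp by Ppp1r12a (0.98). Matr3 was closest to Lin7c (0.98), Ubqln2 to Rnf165 (0.97), Smn1 to Enkd1 (0.97) and Tbk1 to Fcho2 (0.97). The likeness was weaker for Optn, with Entpd3 at 0.94, and for Chmp2b, with Susd1 at 0.93.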

How the data were processed

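Libraries were made from oligo-dT-selected RNA, per the labels' protocols, with a kit that does not mark strand. The authors deposited a signal per gene and per transcript on RefSeq models, per the file headers, and each gene value was the sum of its transcripts. The submitters' processing notes name DESeq, bedtools, mm9 and mm10 without roles, and no aligner is given in the sources used here. Values are not counts. After multiplication by transcript length, 76.3% to 78.3% of low single-transcript genes came within 0.1 of whole steps of a library constant, and depth was approximated from that step. Of the forms the design allowed, that for normalized values applied. Genes averaging at least 1 in signal over the libraries compared were tested with limma 3.58.1 (R 4.3.3, trended prior, two-sided, adjusted p at most 0.05) on log2(signal + 1), which understates changes of low genes, and the method was tested on simulated data. The 9 members and all lists were chosen with earlier results of these data known. All members, the up to 4 called genes of each list with the smallest adjusted p, the 2 genes most like each member, and paralogs could be named, and a few items under this rule are not reported here. Annotation was GENCODE M21 (GRCm38). No library duplicated another (highest correlation 0.988). Alternatives covered pseudocount, filter, scaling, variance prior, fit, replicate block and left-out libraries.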

Additional observations from a re-analysis of the deposited data

Results flagged for a closer look

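Matr3 in WT motoneurons had 1 library far from the others. WT replicate 2 was at 4797, and the other WT libraries were at 2994 to 3458. The gap exceeded Dixon's critical value for 6 samples (0.625). That critical value is exceeded by chance in about 1 of 20 groups, and 9 groups were examined. Without this library the log2 difference of Matr3 between DKO and WT motoneurons was 0.26 (adjusted p = 0.0845).

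Optn moved in opposite directions in libraries of the same class relative to the WT motoneuron range of 102 to 151. Among interneurons it was at 154 in V1, against 67.1 in V2a and 65.3 in V3. Among progenitors it was at 184 in NP, against 66.6 in pMN. With 1 library for each cell type, the differences between libraries within a class were not tested. Set against WT motoneurons, V2a with V3 gave a limma adjusted p of 0.00609, in a fit that left out V1 after its value was seen. Fits with pMN alone or NP alone rest on 1 progenitor library, which has no spread of its own.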

How the results depend on the processing

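Of the log2 differences of the 9 members under the alternatives, 186 of 198 (DKO over WT motoneurons), 175 of 198 (WT motoneurons over interneurons) and 171 of 189 (WT motoneurons over progenitors) kept their direction and side of the threshold. Sums of transcripts gave the deposited values again. The cause of the changes below was not tested. The single member called in DKO motoneurons became 0 with a prior without trend, with all 13 libraries in 1 fit and with the replicate block, and 2 without WT replicates 2, 3 and 4 or without 1, 5 and 6, with 0 to 1 when single libraries were left out. The 3 members called against interneurons became 5 without WT replicates 1, 5 and 6, 4 with equal totals, and 2 with quantile normalization, with a prior without trend and without WT replicates 2, 3 and 4. All genes called in DKO motoneurons (1299) became 844 with a prior without trend, 236 with all 13 libraries, 2315 without WT replicates 2, 3 and 4, 2452 without 1, 5 and 6 and 214 with the replicate block, and 97 to 2032 when single libraries were left out. Those called against interneurons (5419) became 3536 without WT replicates 2, 3 and 4. With equal totals, the share of higher among called genes was 52.3% against 40.3% (DKO over WT), 34.0% against 53.9% (WT motoneurons over interneurons) and 54.3% against 45.3% (WT motoneurons over progenitors). Replicate numbers are shared by DKO and WT libraries, and deviations of same-numbered libraries correlated at -0.062 and -0.012. The deviations of the 2 DKO libraries mirror each other. These values therefore cannot decide whether same-numbered libraries share more than a number. With the block, Sod1 (0.019) and Chmp2b (-0.10) changed sign in DKO over WT motoneurons and Ubqln2 was not called (log2 0.59, adjusted p = 0.145). No other value that changed sign had passed the test with all libraries. In DKO over WT they were Smn1 (-0.028) without WT replicates 2, 3 and 4, and Chmp2b without 1, 5 and 6 (-0.037) or with single libraries left out (-0.18, without DKO replicate 2, to 0.39). Against interneurons they were Vcp and Matr3 with equal totals (-0.010 and -0.14) and quantile normalization (-0.054 and -0.18), and Matr3 without WT replicates 2, 3 and 4 (-0.092) or with single libraries left out (-0.057, without V3, to 0.11). Against progenitors they were Optn (-0.64 without pMN to 0.82 without NP, both called) and Chmp2b (-0.84 without pMN, called, to 0.17 without NP). At about 124 reads for Optn in the shallower DKO library, depth limits its precision.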
